A study of Mus musculus with 7 samples.

Results

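The genes described here are 33 members of the interferon response and of MHC class I antigen presentation, measured in 7 mouse tibialis anterior muscles, a muscle on the front of the lower leg. The members were chosen by name, with no measured value in the rule, but with earlier results of these data known. All 33 were found among the 53083 genes that the 7 count tables share. Of these, 25 are interferon-induced genes and 8 belong to MHC class I and its peptide supply. The muscles were labelled WT (2 muscles), Ctr (2) and DMD (3). The labels give no genotype, treatment, age or sex, and they do not say whether the muscles came from separate animals, so that p-values measure only the spread between these samples. Column names in the tables carry pax7 for WT, hDMD for Ctr and mdx for DMD, words that the labels do not explain. Mouse Dmd lay between 8.81 and 19.8 CPM (counts scaled to the total of the library) in the 7 muscles with the groups overlapping, and the human DMD sequence, counted only for Ctr and DMD, lay between 14.5 and 24.8 CPM in both groups, so these levels did not separate the labels.

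Each muscle had been cut into serial cryosections, and the polyadenylated RNA of each section carried its own barcode. Of 525 sections, 422 were kept, 50 to 67 per muscle, and the kept sections of a muscle summed to between 11181994 counts (DMD 2) and 41407203 counts (DMD 1). The annotation used for counting differed between WT on the one hand and Ctr and DMD on the other. In differences that involve WT it cannot be told apart from the group. The tissue label was met by Acta1, skeletal muscle actin, which had between 12290 and 25692 TMM-scaled CPM. The summed level of 18 macrophage markers was 74.2 and 74.6 CPM in WT and 85.6 and 121 CPM in Ctr, compared with 1798, 1480 and 246 CPM in DMD 1, 2 and 3. Of these 18 markers, 15 were higher in DMD than in Ctr (edgeR, Benjamini-Hochberg adjusted). Markers of T, NK and B lymphocytes were low, and highest in DMD 1 and DMD 2: the 15 markers summed to 3.20 and 3.996 CPM in WT and 0.835 and 3.19 CPM in Ctr, compared with 24.2, 19.1 and 4.03 CPM in DMD. Of the 6 with enough counts to be tested, all had positive DMD minus Ctr differences (median 1.58) and 1 was called, Ptprc, which all leukocytes carry (3.83 ± 0.97, edgeR adjusted p = 0.0338). Without Ptprc the sum was 7.03, 5.81 and 3.04 CPM in DMD against 0.385 and 2.54 CPM in Ctr and 2.42 and 3.56 CPM in WT, so that DMD 3 lay below WT 2. Trac had 55 counts and Cd79b 77 counts in DMD 1, while Cd8a had no count in any muscle and Cd3e at most 2. The part of lymphocytes in the results was not tested. In such bulk sections, a change in the number of cells of a type and a change in RNA per cell cannot be told apart. DMD 1 stood apart from the other muscles in the members, as described below, and calls of members that rest on it are given with and without it.

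Interferons are secreted signals of innate immunity. Type I interferons act through the receptor chains Ifnar1 and Ifnar2 and the kinases Jak1 and Tyk2, which activate a transcription factor complex that includes Stat2 and Irf9, and this complex binds interferon-stimulated response elements in the promoters of its target genes. Interferon gamma acts through another receptor and is a strong inducer of class I genes. MHC class I molecules consist of a heavy chain (in these mice H2-K1 and H2-D1) with the light chain B2m, and they show peptides to CD8 T cells. The peptides are cut by the immunoproteasome, whose catalytic subunits include Psmb8 and Psmb9, and are carried into the endoplasmic reticulum by the transporter Tap1-Tap2, to which Tapbp (tapasin) links the empty class I molecule. Mature muscle fibres are known for low class I display, which is raised in inflamed and dystrophic muscle.

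The promoters of Isg15, Ifit1, Bst2 and B2m are printed because they hold the core of the response element. These genes are also used below to show the pattern over the sections. The core was searched as GAAANNGAAA on either strand (TTTCNNTTTC on the other strand), with overlapping matches counted separately. The search window was the 250 bases before the start of each RefSeq gene on GRCm38.p6, and bases after the start were not searched. A window was found for 27 of the 33 members. The core stood in 9 of 20 interferon-induced members and in 1 of 7 class I members with a window, against 2.98% of all 32851 windows and 3.46% of all 27025 genes. The stretches below run 5′ to 3′ on the gene's own strand, end before the gene start in the deposited tables, and have the matched cores in capitals. They lie at chr4:156200819-156201068 on the minus strand (Isg15), chr19:34640639-34640870 on the plus strand (Ifit1), chr8:71537473-71537722 on the minus strand (Bst2) and chr2:122147437-122147685 on the plus strand (B2m).
Isg15: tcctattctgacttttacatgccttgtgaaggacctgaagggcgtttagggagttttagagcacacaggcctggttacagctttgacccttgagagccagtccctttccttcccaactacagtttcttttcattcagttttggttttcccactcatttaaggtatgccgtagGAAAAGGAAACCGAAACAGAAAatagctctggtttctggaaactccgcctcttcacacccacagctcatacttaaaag
Ifit1: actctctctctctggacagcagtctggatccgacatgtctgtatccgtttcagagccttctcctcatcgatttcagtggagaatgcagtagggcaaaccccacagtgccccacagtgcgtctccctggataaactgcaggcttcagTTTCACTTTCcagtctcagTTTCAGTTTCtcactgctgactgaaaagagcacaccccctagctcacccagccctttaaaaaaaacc
Bst2: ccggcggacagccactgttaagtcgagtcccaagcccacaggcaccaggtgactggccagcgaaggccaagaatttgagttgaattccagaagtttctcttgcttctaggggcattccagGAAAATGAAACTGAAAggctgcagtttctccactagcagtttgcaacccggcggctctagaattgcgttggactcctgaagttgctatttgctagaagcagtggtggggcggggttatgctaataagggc
B2m: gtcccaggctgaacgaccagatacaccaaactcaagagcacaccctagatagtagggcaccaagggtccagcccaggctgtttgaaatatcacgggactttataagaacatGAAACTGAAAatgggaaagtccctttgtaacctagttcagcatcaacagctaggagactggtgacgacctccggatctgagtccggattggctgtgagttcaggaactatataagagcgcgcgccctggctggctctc

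Isg15 held 3 overlapping cores, Bst2 held 2 that overlap, Ifit1 held 2 and B2m held 1. The other members with a core in their window were Ifit3, Stat2, Rsad2, Ifitm2, Gbp2 and Gbp3. A match of these letters is a description of the window and does not show binding.

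The comparison of DMD with Ctr asks how the members differ between the muscles named for the disease and their control group. All 3 genes of the class I molecule and the peptide transporter Tap1 were higher in DMD, and each was higher in all 3 DMD muscles than in any of the other 4. Such an arrangement held for 5 of the 31 tested members (16.1%), against 14.5% of all genes, so over the members it was about as frequent as elsewhere. None of the interferon-induced members passed the test. Levels are given as CPM over the kept sections of a muscle, scaled by edgeR's TMM factor, and differences as log2 differences with their standard error (SE) from edgeR's quasi-likelihood test with Benjamini-Hochberg adjustment over 13746 genes. Genes with an adjusted p under 0.05 are termed called.

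B2m (chr2:122147686-122153083 on GRCm38), the light chain, stood at 102.4 and 94.4 CPM in WT and 67.2 and 67.3 in Ctr, compared with 191, 156 and 113 in DMD 1 to 3. Every DMD muscle lay above every other muscle, and DMD 3 was nearest to WT. The DMD minus Ctr difference was 1.18 ± 0.25 (SE) on the log2 scale with an edgeR adjusted p of 0.0198.

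H2-D1 (chr17:35262730-35267499), a heavy chain, stood at 23.1 and 21.7 CPM in WT and 17.8 and 15.6 in Ctr, compared with 54.3, 39.4 and 29.95 in DMD. The groups did not overlap, and DMD exceeded Ctr by 1.30 ± 0.26 (edgeR adjusted p = 0.018). H2-K1 (chr17:33996017-34000347), the other heavy chain, stood at 44.4 and 42.9 CPM in WT and 32.6 and 30.6 in Ctr, compared with 69.5, 52.1 and 53.1 in DMD. Its DMD minus Ctr difference of 0.88 ± 0.21 was the smallest of the 4 called (edgeR adjusted p = 0.0271). H2-K1 and H2-D1 are near-identical over parts of their sequence, and reads that map to both had been divided between them, so the split between these 2 genes is uncertain.

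Tap1 (chr17:34187553-34197225), a subunit of the peptide transporter, was low and had the largest called difference, going from 1.02 and 1.80 CPM in WT and 0.74 and 1.19 in Ctr to 5.83, 2.87 and 2.31 in DMD. The difference from Ctr was 1.98 ± 0.50 with an edgeR adjusted p of 0.0342. The other 4 members of peptide supply, which lie on chromosome 17 as well, did not pass. Tapbp stood at 54.7 and 44.8 CPM in WT and 36.6 and 42.1 in Ctr, compared with 96.8, 72.6 and 47.6 in DMD, above both Ctr muscles in each DMD muscle but with DMD 3 inside the WT range (0.88 ± 0.29, edgeR adjusted p = 0.0712). Psmb8 was 1.45 and 1.56 CPM in WT and 2.10 and 1.28 in Ctr, compared with 3.91, 3.61 and 1.70 in DMD, with DMD 3 below Ctr 1. Psmb9 lay between 0.819 and 2.59 CPM and Tap2 between 0.134 and 1.61 CPM in the 7 muscles, with overlapping groups.

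**Figure D1:**
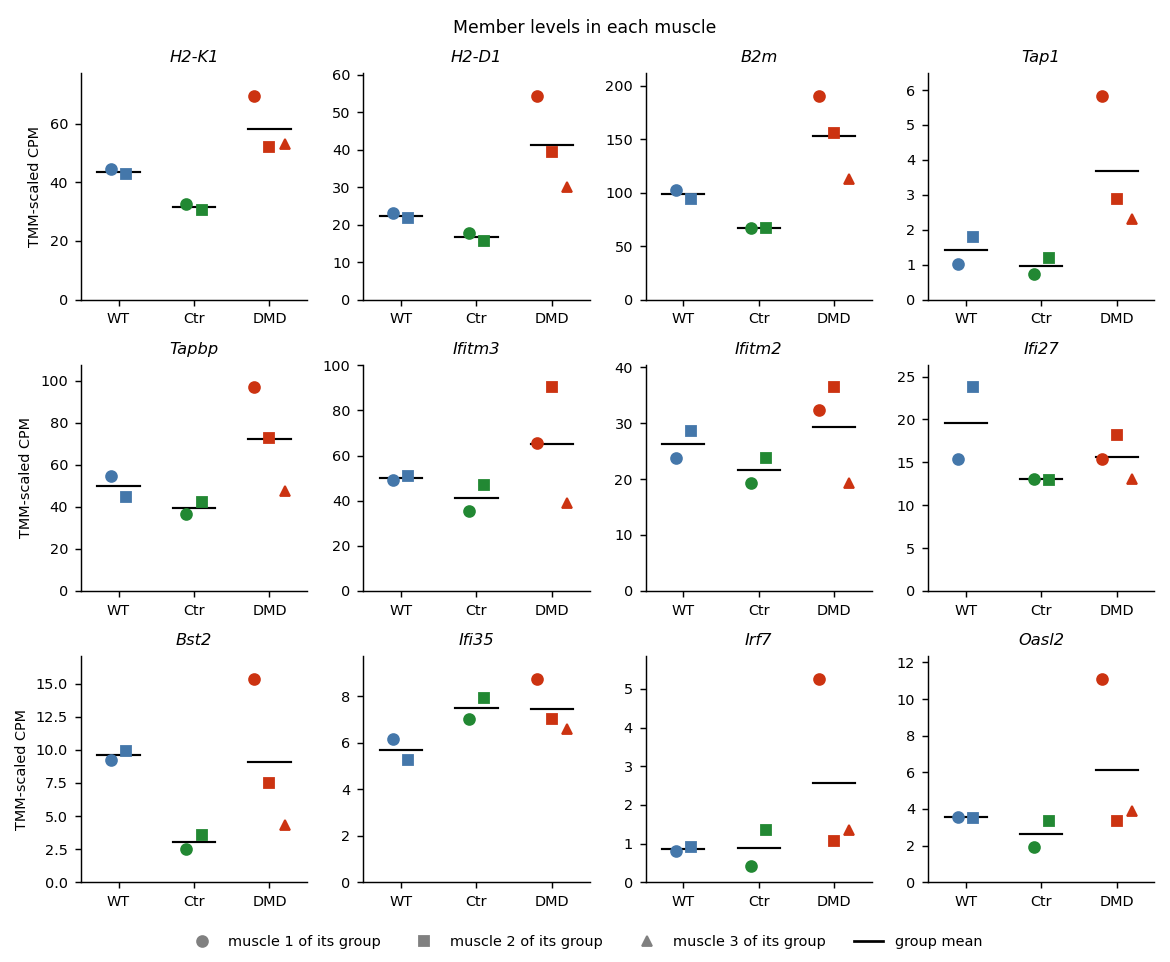
Each panel shows 1 member, with the TMM-scaled CPM of each muscle on a linear axis from 0, the muscles grouped as WT, Ctr and DMD, and a bar at the group mean. The 3 DMD muscles lie above all other muscles for H2-K1, H2-D1, B2m and Tap1, while Irf7 and Oasl2 are high in DMD 1 alone (5.27 and 11.1 CPM).

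Among the interferon-induced members, 0 of 23 tested were called in DMD against Ctr, with 6 at an unadjusted p below 0.05 in edgeR. Counted over all members, 4 of 31 tested were higher and 0 lower, against 7.17% of all genes called higher and 5.49% called lower. The median log2 difference was 0.76 over the tested members, 0.88 over class I and 0.63 over the interferon-induced members, against 0.02 over all genes. Ifit2 and Oas2 had too few counts to be tested: Ifit2 had 67 counts in DMD 1 and at most 4 in any other muscle, and Oas2 had 76 and at most 8.

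Ifitm3, a membrane protein that blocks the entry of enveloped viruses, stood at 49.2 and 51.1 CPM in WT and 35.6 and 47.0 in Ctr, compared with 65.8, 90.3 and 38.8 in DMD. DMD 2 was highest and DMD 3 lay between the Ctr muscles (0.65 ± 0.32, edgeR adjusted p = 0.196). In its relative Ifitm2, DMD 2 was also the highest DMD muscle, with 32.3, 36.4 and 19.4 CPM in DMD against 19.4 and 23.8 in Ctr. DMD 3 was level with the lower Ctr muscle for Ifitm2, which shares reads with other genes. Ifi27 was 13.1 and 12.9 CPM in Ctr and 15.4, 18.2 and 13.1 in DMD, with WT at 15.4 and 23.8. Ifi35 was 7.03 and 7.92 CPM in Ctr and 8.75, 7.02 and 6.58 in DMD, a difference of 0.0047 ± 0.22.

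Bst2 (tetherin), which holds budding virus particles at the cell surface, stood at 9.26 and 9.91 CPM in WT and 2.53 and 3.58 in Ctr, compared with 15.4, 7.49 and 4.36 in DMD. The DMD muscles lay above Ctr and on both sides of WT (DMD minus Ctr 1.61 ± 0.48, edgeR adjusted p = 0.0548; DMD minus WT -0.06 ± 0.43, adjusted p = 0.943). Ifit3, an RNA-binding tetratricopeptide protein, had the same arrangement, with 1.08 and 1.80 CPM in WT and 0.247 and 0.511 in Ctr, compared with 2.40, 0.936 and 0.959 in DMD. The difference of Ctr from WT was -1.66 ± 0.52 for Bst2 and -1.94 ± 0.69 for Ifit3 and neither passed (edgeR adjusted p = 0.15 and 0.189).

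The members below were picked out after their values were seen, for their pattern over the muscles. Irf7, the transcription factor that amplifies type I interferon production, stood at 0.808 and 0.901 CPM in WT and 0.432 and 1.36 in Ctr, compared with 5.27, 1.07 and 1.35 in DMD, so that only DMD 1 was outside the range of the others. Oasl2, an oligoadenylate synthetase-like protein, stood at 3.55 and 3.52 CPM in WT and 1.91 and 3.32 in Ctr, compared with 11.1, 3.34 and 3.88 in DMD. Ifit1, whose promoter is printed above, stood at 1.45 and 1.97 CPM in WT and 1.85 and 1.45 in Ctr, compared with 4.39, 1.27 and 1.09 in DMD. In Irf7, Oasl2 and Ifit1, the level of DMD 2 and DMD 3 was close to that of the WT and Ctr muscles.

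Isg15, the ubiquitin-like modifier, was rare throughout: 4 and 4 counts in WT and 2 and 3 in Ctr, compared with 58, 7 and 3 in DMD. Rsad2 (viperin) stood at 5.82 and 5.73 CPM in WT and 4.07 and 6.64 in Ctr, compared with 6.16, 2.47 and 3.01 in DMD, so that DMD 2 and DMD 3 were lowest (-0.41 ± 0.38 from Ctr). Ifih1 (MDA5), a sensor of double-stranded RNA, was the 1 of 23 tested interferon-induced members (4.35%, against 14.5% of all genes) whose DMD muscles lay above all others, with 3.29 and 2.79 CPM in WT and 3.08 and 4.17 in Ctr, compared with 5.22, 4.95 and 5.76 in DMD. Its difference was small (0.56 ± 0.24 from Ctr, 0.80 ± 0.24 from WT) and did not pass (edgeR adjusted p = 0.148 and 0.0525).

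The highest level of a tested member was in DMD 1 for 22 of 31 members (71.0%), against 19.2% of all genes tested. In 7 of the 31 (22.6%) DMD 1 was at least 2-fold above every other muscle, against 1.05% of all genes. All 8 class I members were highest in DMD 1. The remaining interferon-induced members (Usp18, Irf1, Irf9, Stat2, Eif2ak2, Parp14, Ifitm1, Xaf1, Rtp4, Gbp2 and Gbp3) had DMD minus Ctr differences between -0.16 (Ifitm1) and 1.40 (Irf1). Irf9, Parp14, Ifitm2, Rtp4 and Tapbp overlap another annotated gene on the same strand, so part of their counts may belong to that gene.

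**Figure D2:**
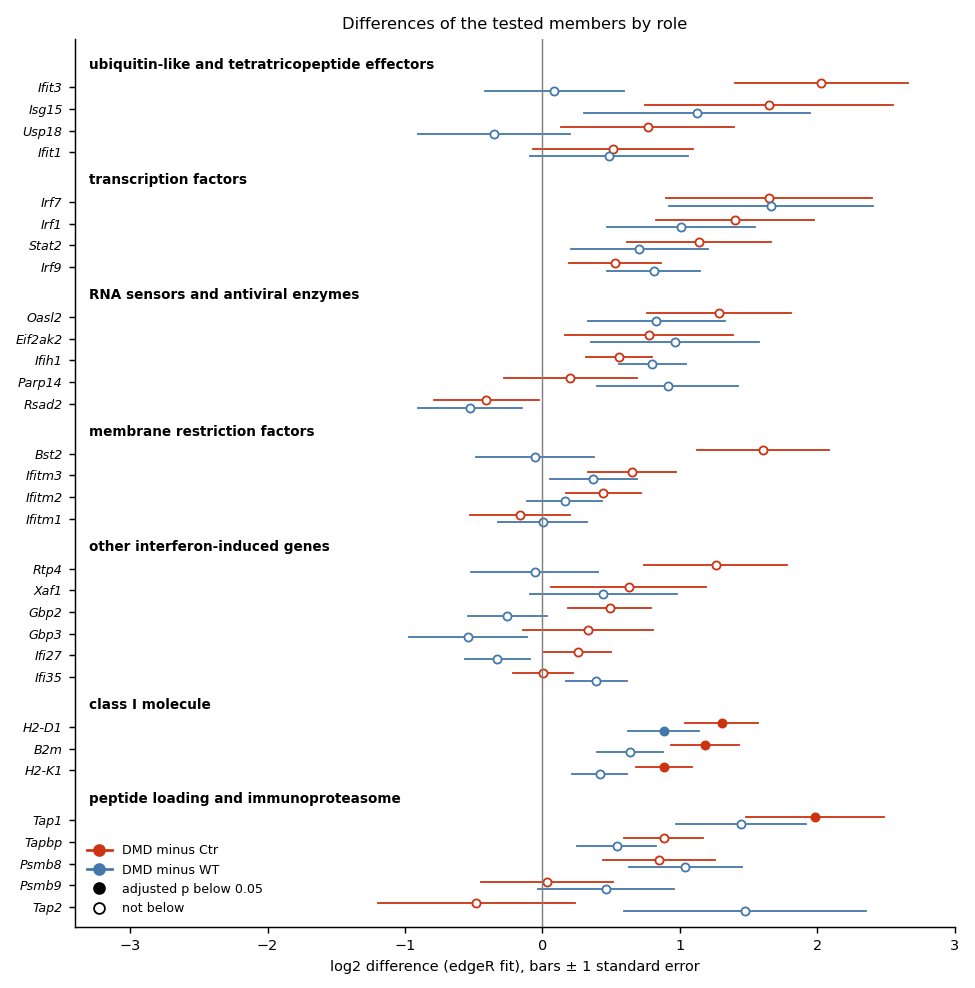
The log2 differences of the 31 tested members from the edgeR fit, with bars of 1 standard error, are grouped by role for DMD minus Ctr (red) and DMD minus WT (blue), and filled points have an adjusted p below 0.05. The filled points are H2-D1, B2m, H2-K1 and Tap1 for DMD minus Ctr and H2-D1 for DMD minus WT.

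Against WT, 1 of 31 tested members was higher in DMD, H2-D1 with 0.88 ± 0.26 (edgeR adjusted p = 0.0469), against 8.25% of all genes called higher and 6.92% called lower. This call was lost in 6 of 13 alternatives: without DMD 1 the difference was 0.61 (adjusted p = 0.116), without DMD 2 it was 0.93 (0.0747), without WT 1 0.93 (0.22), without WT 2 0.83 (0.273), with only both groups in the fit 0.83 (0.0689) and in the sections below the median macrophage score 0.73 (0.076). B2m differed by 0.64 ± 0.24, H2-K1 by 0.42 ± 0.20 and Tap1 by 1.44 ± 0.47 (edgeR adjusted p = 0.1, 0.179 and 0.066). The median over the members was 0.49, against 0.07 over all genes. Between Ctr and WT, 0 of 31 members were called by edgeR, with 4 at an unadjusted p below 0.05, against 0.364% of all genes in either direction, and DESeq2 called 1. B2m, H2-K1 and H2-D1 had Ctr minus WT differences of -0.55 ± 0.26, -0.47 ± 0.22 and -0.42 ± 0.28, and the members' median was -0.34, but 3 of the 5 peptide supply members had positive differences. These differences depend on the scaling, as the TMM factors were 0.804 and 0.669 in WT. The summed class I level was 229 and 208 CPM in WT and 160 and 160.5 CPM in Ctr with TMM scaling, and 184 and 139 CPM in WT and 167 and 154 CPM in Ctr without it. No order of WT and Ctr is therefore shown. DMD against Ctr and DMD against WT share the DMD muscles.

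The calls depended on the muscles. Without DMD 1, 2 members were called in DMD against Ctr, without DMD 2 there were 3, without DMD 3 there were 15, and without either Ctr muscle none. H2-D1 and B2m kept their call without any single DMD muscle, while H2-K1 lost it without DMD 1 and Tap1 without DMD 1 or DMD 2. Within the sections below each muscle's median macrophage score, 5 members were called, among them all 4. Macrophage markers there still summed to 1137, 1289 and 182 CPM in DMD against 66.9 and 97.1 CPM in Ctr, so their part in the difference was not tested.

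Other genes of the pathway were examined by lists. None of the 8 interferon ligand genes on the list was measured at a usable level. Ifnb1 had 2 counts in DMD 1, and Ifna1, Ifna2, Ifna4, Ifng, Ifnl2, Ifnl3 and Ifnk had none in any muscle. Other interferon genes were not on the list. A count of 0 allows up to 3 counts, which is 0.0725 CPM in the deepest muscle and 0.268 CPM in the shallowest. Of 17 receptor and JAK-STAT genes, 1 was higher in DMD than in Ctr, the type I receptor chain Ifnar2, which rose from 3.39 and 3.58 CPM in Ctr to 9.28, 7.62 and 5.67 in DMD (1.12 ± 0.27, edgeR adjusted p = 0.0287). It also differed from WT (1.04, adjusted p = 0.0294). Of 14 tested nucleic acid sensing genes, the endosomal RNA receptor Tlr7 was higher (2.79 ± 0.72, edgeR adjusted p = 0.0361) and the mitochondrial adaptor Mavs lower, with 30.8 and 21.6 CPM in Ctr and 11.7, 11.2 and 16.5 in DMD (-1.0 ± 0.24, adjusted p = 0.0281). Tlr7 was 0.215 and 0.164 CPM in WT and 0.247 and 0.255 CPM in Ctr, compared with 2.30, 2.41 and 0.567 CPM in DMD.

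Among 38 tested further interferon-stimulated genes, 7 were higher and 2 lower in DMD than in Ctr, with a median of 0.89. Mpeg1 (perforin-2, which macrophages express strongly) had the largest difference, from 0.25 and 0.68 CPM in Ctr to 38.6, 20.7 and 5.01 in DMD (5.61 ± 0.93, edgeR adjusted p = 0.0108). It was followed by Phf11b (3.73) and Ifi209 (3.60). Both the nuclease gene Isg20 (-1.48) and Daxx (-0.97) were lower. None of 11 tested interferon-gamma-induced GTPases passed (median 0.41), with 1 at an unadjusted p below 0.05. Of these, Igtp stood at 3.64 and 5.02 CPM in Ctr and 21.2, 6.22 and 7.46 in DMD (1.46 ± 0.50, edgeR adjusted p = 0.0802).

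Of 18 tested further class I genes, H2-M3, a non-classical heavy chain, was higher in DMD than in Ctr (1.54 ± 0.37, edgeR adjusted p = 0.0286) and 17 were not called. None of the 14 constitutive proteasome subunits was called, and their median was -0.12. All 7 MHC class II genes, which present peptides on professional antigen-presenting cells, had higher levels in DMD than Ctr, by 2.30 (Cd74) to 2.93 (Ciita, the class II transactivator). H2-Ab1 rose from 8.14 and 28.3 CPM in Ctr to 150, 176 and 69.6 in DMD (2.87 ± 0.54, edgeR adjusted p = 0.0153). Class II thus differed by more than class I in the same muscles, where macrophage markers had a median difference of 2.81.

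The members were followed in section order, taken from the barcode number in the column names. The labels do not say that this number follows the order of cutting, nor which end is proximal. Values along the section order are CPM without TMM scaling, on which DMD 1 and DMD 2 stand higher than on the scaled level, as their TMM factors were 1.41 and 1.34 against 1.04 and 0.962 in Ctr, and on which WT stands lower. In DMD 1 the summed level of the 25 interferon-induced members was 181, 224, 253, 290 and 607 CPM in the 5 successive segments of its sections, each with 13 sections, so the last segment was 3.36-fold above the first. The 8 class I members had 349, 497, 542, 649 and 1043 CPM in the same segments, a 2.99-fold range. The macrophage markers had 776, 1371, 1526, 1810 and 3928 CPM. Single sections of DMD 1 ranged from 127 to 858 CPM for the interferon-induced members and from 252 to 1465 CPM for class I.

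No other muscle had such a range. DMD 2 had 282, 284, 290, 263 and 225 CPM for the interferon-induced members and 410 to 474 CPM for class I. DMD 3 had 105 to 122 CPM and 228 to 263 CPM. The ratio of the highest to the lowest segment was between 1.08 and 1.40 in the 4 WT and Ctr muscles and both member groups, and between 1.15 and 1.29 in DMD 2 and DMD 3. The summed level of DMD 2 was nevertheless high in every segment. Its lowest segment of 225 CPM for the interferon-induced members was above every segment of the WT and Ctr muscles (at most 133 CPM). With TMM scaling this held against Ctr (168 CPM against at most 138), but not against WT, where the highest segment had 173 CPM. Ifitm3 (92.7 CPM) and Ifitm2 (41.9 CPM) made up most of the unscaled sum in that segment of DMD 2. The high sum of DMD 2 therefore does not hold for each member, and Irf7, Oasl2 and Ifit1 were close to WT and Ctr there, as given above. The level of DMD 3 lay within the WT and Ctr range for the interferon-induced members. For class I its lowest segment (228 CPM) was above the highest segment of any WT or Ctr muscle (194 CPM). With TMM scaling it was 232 CPM, above Ctr (at most 169.8) and below the highest segment of WT (242).

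**Figure D3:**
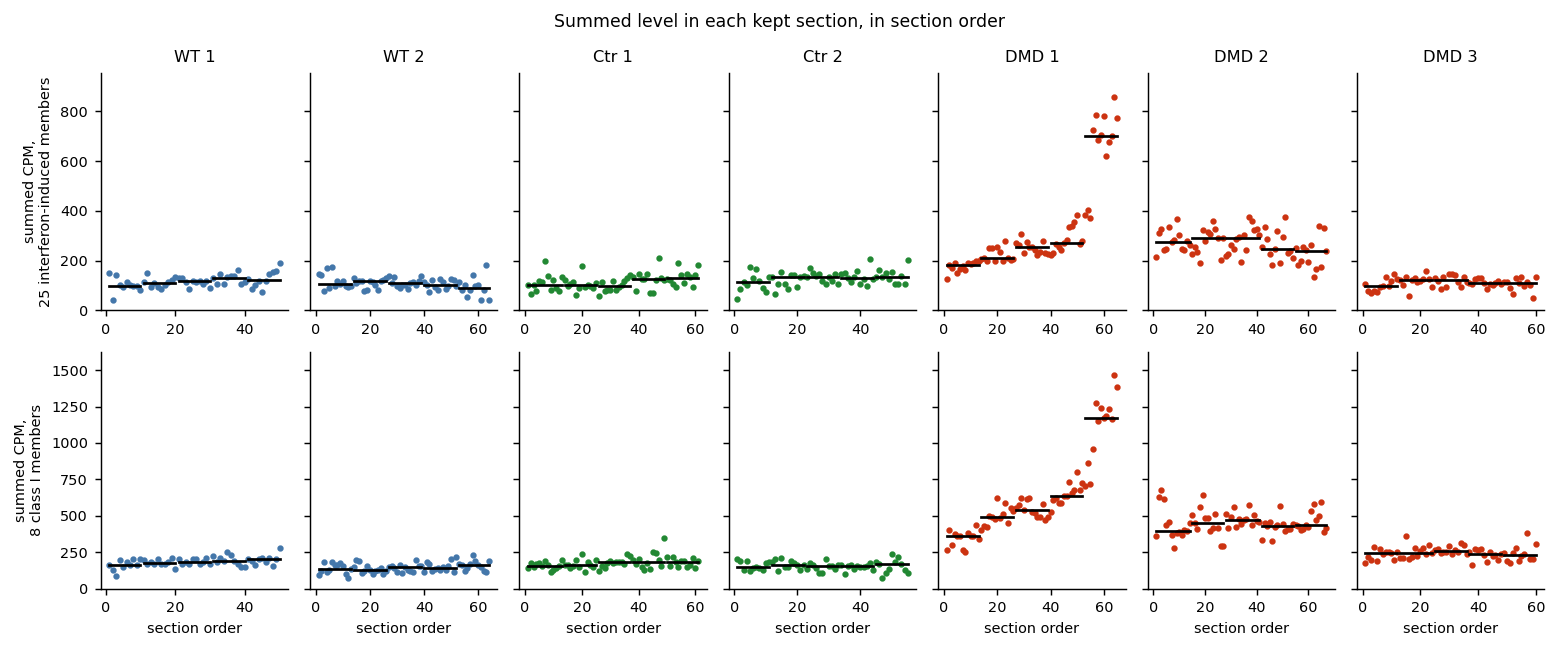
Summed CPM of the 25 interferon-induced members (top) and of the 8 class I members (bottom) in each kept section, in section order, with a bar at the median of each segment. DMD 1 reaches 858 and 1465 CPM in single sections of its last segment, while the other muscles stay level over the section order.

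Nearly all members were higher in the last than in the first segment of DMD 1. Of 32 members with at least 20 counts over both segments, 31 were at least 2-fold higher in the last segment than in the first, against 30% of all genes under the same limit. Some members reached this limit only through the last segment, among them Isg15 (3 and 24.8 counts), Usp18 (2.81 and 42) and Ifit3 (1 and 62.5). The share of members is therefore a description and no test. The members' median ratio was 3.78, and that of all genes was 1.54. Exact Poisson intervals (95%) cover counting error only. Oasl2 went from 3.07 CPM (interval 1.90 to 4.69) to 52.2 CPM (46.8 to 58.0), which was 17.01-fold. Irf7 went from 1.90 to 25.7 CPM (13.5-fold) and Ifit1 from 1.68 to 18.7 CPM (11.1-fold). Usp18, which removes Isg15 from proteins, went from 0.410 to 6.42 CPM and Isg15 itself from 0.438 to 3.80 CPM.

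Ifit3 had 1 count in the first segment and 62.5 in the last, 0.146 CPM (interval 0.0037 to 0.813) against 9.56 CPM (7.34 to 12.2). The 5 tetratricopeptide and ubiquitin-like effectors had the largest median ratio (11.1), followed by the RNA sensors and antiviral enzymes (4.51) and the transcription factors (4.36). The membrane restriction factors had a median of 2.67, with Bst2 at 4.83-fold. In class I, Psmb9 was 8.53-fold, Psmb8 4.68-fold and Tap1 4.15-fold higher, while the abundant H2-K1, H2-D1, B2m and Tapbp were between 2.54-fold and 3.12-fold higher. Ifi27 was the exception, with 21.5 CPM in the first segment and 23.7 CPM in the last. Of the 4 genes whose promoters are printed above, Ifit1 had the largest ratio and B2m the smallest (3.05).

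**Figure D4:**
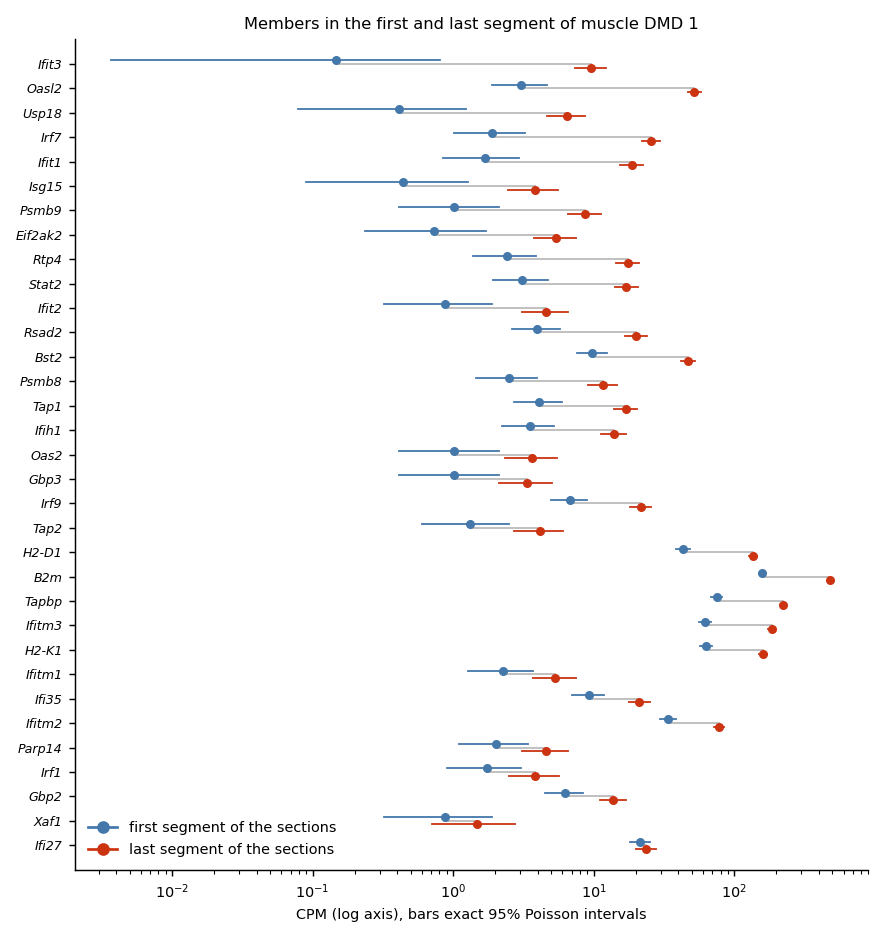
CPM of each member in the first (blue) and last (red) segment of the sections of DMD 1 on a log axis, with exact 95% Poisson intervals, ordered by the ratio of the segments. Ifi27 at the bottom is level at 21.5 and 23.7 CPM, and Ifit3 at the top goes from 0.146 to 9.56 CPM.

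Among other lists in DMD 1, 37 of 41 further interferon-stimulated genes, 7 of 7 class II genes and 17 of 18 macrophage markers (median 5.13) were at least 2-fold higher in the last segment. For the regenerating fibre markers this held for 7 of 10. It held for 0 of 14 constitutive proteasome subunits and for 1 of 13 endothelial markers, and all 5 erythroid markers were at least 2-fold lower. In DMD 2 and DMD 3, 0 of 13 members with enough counts were 2-fold higher in the last segment, against 2.19% and 2.06% of all genes. The same count was 0 of 11 in WT 1, 0 of 10 in WT 2, 0 of 13 in Ctr 1 and 0 of 10 in Ctr 2, against 3.13%, 4.38%, 3.37% and 3.77% of all genes. Fewer members had enough counts in these muscles than in DMD 1, so their counts do not cover the same members. Rsad2 was lower in the last segment than in the first in Ctr 1 (ratio 0.219) and Ctr 2 (ratio 0.308), with intervals that did not overlap. Ifitm2 went the other way in Ctr 1, from 16.2 CPM (interval 12.2 to 21.1) to 28.9 CPM (23.2 to 35.6), and no other member had intervals apart in these 6 muscles.

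Over the 7 muscles together, edgeR called 0 of 13 members tested between the first and last 20% of sections (1.27% of all genes in either direction), with 2 at an unadjusted p below 0.05. B2m went from 141 to 318 TMM-scaled CPM in DMD 1 and from 150 to 145 in DMD 2. For the middle 60% against both ends, 0 of 21 members were called (0.583% of all genes) and 5 had an unadjusted p below 0.05. DESeq2 called none in either comparison. These fits pool all muscles with the muscle as a term, so that a pattern of 1 muscle adds to their error.

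The relation to macrophages was examined within muscles, since the members and the macrophage markers were high in the same sections of DMD 1. Scores are the mean z of log2(CPM + 10) over a list. Over the 65 sections of DMD 1, the correlation with the macrophage score was 0.91 for the interferon-induced members and 0.93 for class I, and the member groups correlated with each other at 0.94. These are descriptions over sections of 1 muscle that share a library. In DMD 2 the same correlations over 67 sections were -0.01, 0.02 and 0.01, and in DMD 3 over 60 sections 0.43, 0.38 and 0.30. In DMD 2 and DMD 3 the interferon-induced score also correlated with the section's total count (0.46 and 0.48), in DMD 1 with the opposite sign (-0.23). This correlation with the total was 0.47 and 0.44 in WT 1 and WT 2, and 0.06 and 0.13 in Ctr 1 and Ctr 2, so it was not particular to DMD.

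**Figure D5:**
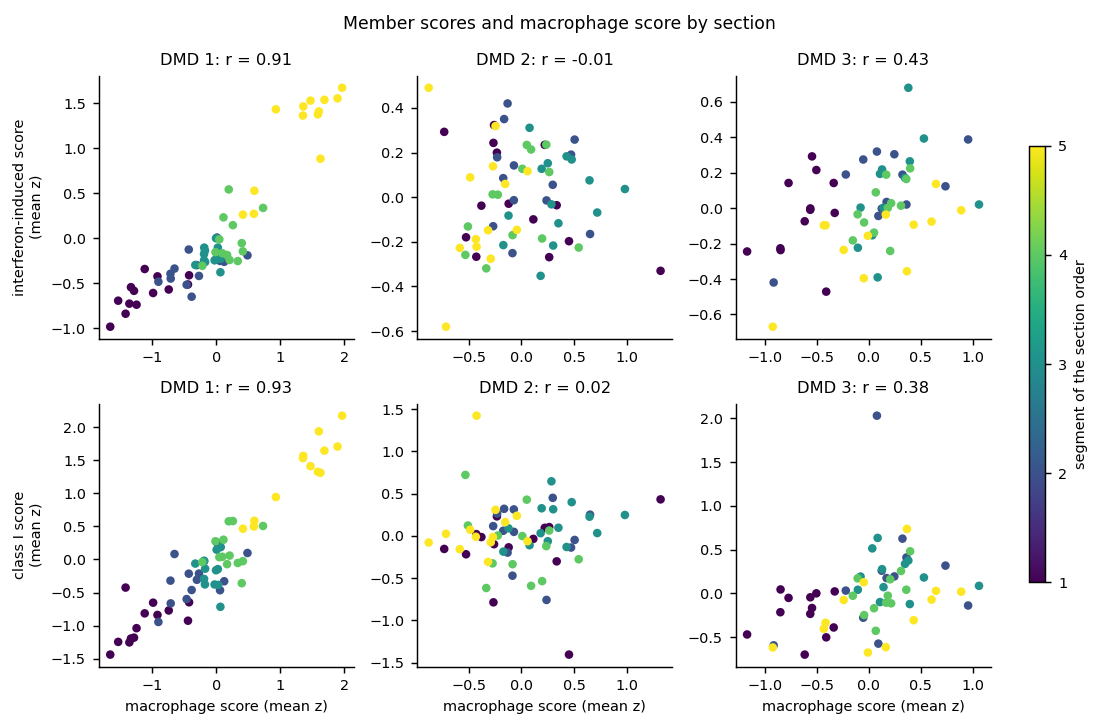
Mean z score of the interferon-induced members (top) and class I members (bottom) against the macrophage score in each kept section of the 3 DMD muscles, coloured by the segment of the section order. In DMD 1 the points form a line (r = 0.91 and 0.93) that ends in sections of the last segment, and in DMD 2 they form a cloud (r = -0.01 and 0.02).

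In DMD 1 the regenerating fibre score was correlated with both member groups as well (0.73 and 0.77), while for the endothelial score the correlations were -0.21 and -0.17. In WT and Ctr muscles the correlation with the macrophage score was between -0.04 and 0.30 for both member groups. In the same muscles neighbouring sections were little alike in the interferon-induced score (correlation between -0.07 and 0.21). This correlation was also low in DMD 2 (0.02) and DMD 3 (0.06), whereas in DMD 1 it was 0.92.

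The 20% of sections with the highest macrophage score were then compared with the other sections of the same muscle, a choice that used no member. In DMD muscles, 5 of 27 tested members were higher in the macrophage-rich sections, against 2.13% of all genes, and 0 were lower (0.232% of all genes). These 5 were the transcription factor Irf7, Oasl2 and the membrane proteins Bst2, Ifitm3 and Ifitm2. All 5 calls were lost with DESeq2, which called 0 members, without the muscle as a term, and without DMD 1. Bst2 and Ifitm2 kept theirs in 4 of 13 alternatives each and lost it without any single WT or Ctr muscle. All 27 differences were positive, with a median of 0.54 against 0.02 over all genes. The macrophage markers summed to 4008 CPM in the rich and 1400 CPM in the other sections of DMD 1, 1899 and 1398 in DMD 2, and 350 and 220 in DMD 3. Further members missed the threshold, among them Ifit1 (1.21 ± 0.32, edgeR adjusted p = 0.0536) and Rsad2 (0.83 ± 0.23, adjusted p = 0.0631).

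Irf7 had 15.7 TMM-scaled CPM in the rich and 3.01 in the other sections of DMD 1, 0.418 and 1.21 in DMD 2, and 1.48 and 1.37 in DMD 3 (1.66 ± 0.35, edgeR adjusted p = 0.0191). Oasl2 had 31.7 and 6.70 in DMD 1, 2.93 and 3.48 in DMD 2, and 4.22 and 3.93 in DMD 3 (1.42 ± 0.30, edgeR adjusted p = 0.0178). Both calls thus came from DMD 1: without that muscle the differences were -0.24 for Irf7 and -0.00068 for Oasl2, and no member was called. Ifitm3 was higher in the rich sections of each DMD muscle, with 109 against 57.9 CPM, 110 against 87.8 and 46.6 against 38.0 (0.54 ± 0.12, edgeR adjusted p = 0.0196).

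Bst2 was also higher in each, with 29.1 against 12.7 CPM, 8.37 against 7.44 and 5.06 against 4.33 (0.79 ± 0.19, edgeR adjusted p = 0.0386). Ifitm2 had 46.5 against 30.01 CPM, 46.5 against 35.1 and 21.5 against 19.4 (0.43 ± 0.11, edgeR adjusted p = 0.0408). Ifitm3, Bst2 and Ifitm2 therefore had the same direction in the 3 muscles, but none was called without DMD 1. Their differences were larger than the error of this fit and small in DMD 3.

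None of the 8 class I members was called between macrophage-rich and other sections of DMD muscles. B2m had 290 against 174 TMM-scaled CPM in DMD 1, 183 against 153 in DMD 2 and 121 against 114 in DMD 3 (0.38 ± 0.11, edgeR adjusted p = 0.0816). H2-K1 had 97.5 against 65.3, 59.4 against 51.5 and 54.0 against 54.7. Among other lists, 10 of 35 further interferon-stimulated genes, 4 of 13 nucleic acid sensing genes and 4 of 7 class II genes were higher in the rich sections. The macrophage markers (14 of 18 higher) had served to choose these sections, so their count is no independent result. The constitutive proteasome had 0 of 14. The largest differences of single genes in the sensing and interferon-stimulated lists were those of the DNA and RNA sensor Zbp1 (1.98 ± 0.37, edgeR adjusted p = 0.00836) and of Ifi209 (1.89 ± 0.30, adjusted p = 0.00388). Over whole muscles, Zbp1 had 154, 13 and 6 counts and Ifi209 212, 14 and 12 counts in DMD 1 to 3, not scaled for depth. For these lists and both genes, the comparison was not taken without DMD 1. Leaving out 1 muscle in turn gave between 22 and 671 called genes in it.

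In WT and Ctr muscles, none of 27 tested members passed the test between macrophage-rich and other sections: edgeR called 0, none had an unadjusted p below 0.05, DESeq2 called 0, and 0% of all genes were called. B2m had 108 against 104 CPM in WT 1, 93.2 against 99.2 in WT 2, 57.6 against 70.9 in Ctr 1 and 72.0 against 67.4 in Ctr 2. Tapbp differed by -0.08 ± 0.10. The macrophage markers there were between 90.7 and 156 CPM in the rich sections and between 69.1 and 110 CPM in the others, a narrower contrast than in DMD 1. The difference between the macrophage-rich effects of DMD and of WT with Ctr was itself tested: edgeR called 0 members and 0% of all genes, with 12 members at an unadjusted p below 0.05, and DESeq2 called 0 members. The effects are therefore not shown to differ.

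Between regenerating-fibre-rich and other sections of the DMD muscles, 0 of 25 members were called (0.0346% of all genes in either direction). In edgeR 8 had an unadjusted p below 0.05, and DESeq2 called 0. Irf7 (1.101 ± 0.28) and Oasl2 (1.07 ± 0.27) had the smallest p (edgeR adjusted p = 0.244 for both). B2m differed by 0.04 ± 0.15 and Tapbp by 0.18 ± 0.14. In DMD 1 these sections also had more macrophage marker signal, 3435 against 1469 CPM, and its part in these values was not tested. In DMD 2 it was 1301 against 1529 CPM.

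Endothelium-rich sections differed from the others in 1 of 21 members, against 0.0372% of all genes called lower and 0.0465% called higher. Ifit1 was lower in the endothelium-rich sections of each muscle: 0.501 against 1.71 TMM-scaled CPM in WT 1, 1.76 against 2.06 in WT 2, 0 against 2.20 in Ctr 1, 1.34 against 1.48 in Ctr 2, and 1.93 against 5.29, 1.05 against 1.36 and 0.645 against 1.22 in DMD 1 to 3 (-1.24 ± 0.23, edgeR adjusted p = 0.0216). The level was near the limit of detection, and the call was lost without WT 1, without DMD 1, without DMD 3 and by DESeq2. In DMD 1 macrophage markers were lower in these sections, 1527 against 1873 CPM, and their part was not tested. B2m differed by -0.02 ± 0.04 between the same sections.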

How the data were processed

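RNA of single cryosections was counted per gene and section barcode. The deposited values are estimated counts: per the file headers, the authors ran featureCounts 2.0.1 on exons by gene name with strand, dividing reads with several alignments or several overlapping genes into fractions. STAR 2.7.7a and GRCm38 come from the submitters' processing notes. Per the file headers, WT tables used Ensembl GRCm38 with spike-in and EGFP sequences, and Ctr and DMD tables another GRCm38 annotation with spike-in and human DMD sequences. Column names carry trimming and deduplication words that are not explained in the sources used here. Divided reads make the counts of related genes (H2-K1 with H2-D1, the Ifit, Ifitm and Gbp families) uncertain.

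Of 53187 names in both annotations, 12 with another length and 92 spike-ins were left out, which left 53083. A section was kept with a total of at least 1000 counts and at least 20% of its muscle's median. Counts were summed per muscle, or per muscle and section class, then rounded. The counts left after this selection came to 23116888 (WT 1), 18268732 (WT 2), 15575632 (Ctr 1), 12224463 (Ctr 2), 41407203 (DMD 1), 11181994 (DMD 2) and 23341091 (DMD 3). The main test was edgeR 4.0.16 in R 4.3.3 (quasi-likelihood, TMM, filterByExpr, Benjamini-Hochberg over all genes tested), with all 3 groups in 1 fit for whole muscles and the muscle as a term for section classes. On simulated counts with known changes the fits recovered the fold changes used. DESeq2 1.42.0, other scalings, filters and section shares and left-out muscles were tried as alternatives. The first and last of 5 segments of the section order were compared with exact 95% Poisson intervals.

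The members and lists were chosen with earlier results of these data known. All 33 members are accounted for. Those named with values in every muscle were, for whole muscles, the called members and then the uncalled ones with the highest mean CPM, up to 10, and, for section classes, the called members up to 6 or the 2 with the highest mean CPM. Members named beyond this rule were chosen after their values were seen. Promoter windows came from RefSeq on GRCm38.p6.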

Additional observations from a re-analysis of the deposited data

How the results depend on the processing

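With DESeq2's size factors, with mitochondrial genes left out of the totals, and with all sections kept, the number of called members stayed within 1.5 times the main number in each comparison, except for 2 members with all sections kept in DMD against WT (1 in the main fit). Without a filter on low counts, 13 members were called in DMD against Ctr (4), 7 in DMD against WT, 3 in Ctr against WT (0), 11 in DMD macrophage-rich sections (5), 2 in the difference of the macrophage-rich effects (0), 2 in regenerating-fibre-rich sections (0), 1 in middle against end (0) and 2 in first against last sections (0). With only the 2 compared groups in the fit the numbers were 2, 0 and 1 for DMD against Ctr, DMD against WT and Ctr against WT. The DESeq2 Wald test called 2 in DMD against WT, 1 in Ctr against WT, 0 in DMD macrophage-rich sections and 0 in endothelium-rich sections (1). In the sections below the median macrophage score DMD against WT had 0. With 10% of sections the macrophage-rich comparison had 3, the endothelium-rich comparison 0 and middle against end 1; with 30% the endothelium-rich comparison had 0. With no muscle term, the no replicate block fit, macrophage-rich and endothelium-rich sections had 0 each. The cause of these changes was not tested.

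Leaving out 1 muscle in turn gave 0 to 15 called members in DMD against Ctr, 0 to 6 in DMD against WT and 0 to 0 in Ctr against WT. It gave 0 to 12 in DMD macrophage-rich sections, 0 to 0 in those of WT and Ctr and 0 to 0 in the difference of both. It gave 0 to 7 in regenerating-fibre-rich sections, and 0 to 1 in endothelium-rich sections, in middle against end and in first against last. Without DMD 1 the macrophage-rich difference was -0.24 for Irf7 and -0.00068 for Oasl2, and without DMD 3 it was 2.03 and 1.83. The rise of the summed level within DMD 1 was 2.82-fold to 3.83-fold for the interferon-induced members and 2.51-fold to 3.30-fold for class I under the alternatives run.

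Deviations of muscles with the same replicate number correlated between 0.0087 and 0.23, and those with different numbers between -0.23 and 0.069. Within WT and within Ctr the deviations are mirror images of each other, so these pairs are not independent. The correlations therefore cannot decide whether the replicate number pairs the muscles. With the number as a replicate block, 17 members were called in DMD against Ctr, 7 in DMD against WT and 1 in Ctr against WT.

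In simulated counts for DMD against Ctr (13645 genes), 31.5% of 200 genes changed by 1 on the log2 scale were called. Of 200 changed by 2 (13612 genes), 96.5% were called. The changed genes were drawn from well-counted genes, and muscles of a group differed only by a spread common to all genes. These shares therefore do not give the recovery for members with few counts or with large differences between muscles. Members under about 1 CPM had few counts.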

Other observations

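The satellite cell markers, a list that the comparisons above did not use, were at least 2-fold higher in the last than in the first segment of DMD 1 for 4 of 4 with enough counts (median ratio 3.11), as were 7 of 10 regenerating fibre markers (2.64), while 9 mature fibre markers had a median ratio of 0.933. Against 30% of all genes, 9 of 17 interferon receptor and JAK-STAT genes and 11 of 14 nucleic acid sensing genes were at least 2-fold higher there. Among 15 further class I genes the number was 6 (40%), near the share of all genes.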
